A study of Mus musculus with 8 samples.

Results

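The enzymes of serine synthesis are the products of 3 mouse genes, Phgdh, Psat1 and Psph, of the 21859 genes counted in RNA from leukaemia cells of the mouse line PER-M60. They were picked by Ensembl gene ID through GENCODE M21, and all 3 were among the 10729 genes with enough counts to test. The comparison asks how growth in medium conditioned by osteoclasts, the bone-resorbing cells, changes transcript levels of the leukaemia cells. It sets 4 cultures given control medium against 4 given the osteoclast-conditioned one, and the labels record no other agent, genotype or time. What the media contained, how long conditioning lasted and whether the cultures were started separately are not given in the sources used here, so p-values measure only the spread between these samples, which may be technical. All cultures are of 1 line, so no value here extends to another leukaemia.

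Serine can be taken up from the medium or made from glucose. Synthesis branches from glycolysis at 3-phosphoglycerate: Phgdh oxidises it to 3-phosphohydroxypyruvate with NAD+, Psat1 moves an amino group onto that product from glutamate and releases 2-oxoglutarate, and Psph removes the phosphate to give serine. Serine is then a source of glycine, of carbon units carried by folate, of sphingolipids and phosphatidylserine, and of the serine charged onto tRNA. The genes of the route are known targets of ATF4, the transcription factor of the amino acid response, and many cancers, leukaemias among them, are known to depend on a supply of serine.

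Depth and identity were examined first. Total counts ran from 15391754 to 21637966 per sample, the highest in control replicate 2. Markers of B cell precursors were read in every sample: in control and osteoclast-conditioned medium, mean levels were 515 and 572 CPM (counts per 1000000 counts of a library, normalised by the trimmed mean of M values) for Cd79a, 1206 and 1317 CPM for Pax5, and 346 and 384 CPM for Vpreb1. Of 7 osteoclast markers, Dcstamp and Ocstamp were at 0 in every sample, and Ctsk, Mmp9, Calcr and Oscar had at most 7 counts. Acp5, at 22.9 and 24.4 mean CPM in the respective media, made up nearly all of the osteoclast sum of 21.8 to 25.2 and 23.5 to 26.9 CPM. Of 5 macrophage or myeloid markers, Itgam and Cd14 were at 0. The summed level was 4.06 to 4.97 CPM in control and 5.34 to 6.95 in osteoclast-conditioned medium, mostly Lyz2, which rose by a log2 fold change of 0.40 (adjusted p = 0.0119 by edgeR). Its part in the results was not tested. The 9 markers of T cells, erythroid cells and stroma had at most 3 counts in any sample. As in any bulk culture, fewer cells of a type and less RNA per cell cannot be told apart.

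Phgdh and Psph rose by about the same factor in osteoclast-conditioned medium, to 1.18 and 1.19 times the control level, while Psat1 rose to 1.06 times and only just passed the test. All 3 of 3 genes were called higher by edgeR's quasi-likelihood test at a Benjamini-Hochberg adjusted p under 0.05, a call made for 15.7% of all tested genes (30.5% in either direction). In Phgdh and Psph no sample of one medium overlapped the other, which held with the conditioned medium higher for 15.2% of tested genes. The changes were small in absolute terms: Phgdh and Psph changed more than 84.4% and 85.5% of tested genes, and Psat1 more than 43.4%.

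Phgdh (ENSMUSG00000053398; chromosome 3, 98313170 to 98339990 in GRCm38, minus strand) encodes the enzyme that commits 3-phosphoglycerate to serine. Its raw counts were 6785, 8818, 5953 and 7059 in control replicates 1 to 4 and 9436, 7815, 8767 and 7960 in the osteoclast-conditioned replicates. On the normalised scale these were 402, 407, 385 and 398 CPM against 480, 468, 471 and 464 CPM. The lowest conditioned sample lay above the highest control sample. The means were 398 ± 9.14 and 471 ± 6.67 CPM (SD, n = 4 each). This is a log2 fold change of 0.24 (SE 0.03, 95% interval 0.19 to 0.29, adjusted p = 1.81e-08 by edgeR). The spread between replicates was a coefficient of variation of 2.30% in control and 1.42% in conditioned medium, against 1.03 to 1.30% from counting alone.

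Psat1 (ENSMUSG00000024640; chromosome 19, 15904678 to 15947337, minus strand) encodes the pyridoxal phosphate-dependent aminotransferase of the route. Its raw counts were 5262, 7353, 4722 and 5539 in control and 6665, 5736, 6273 and 5530 in conditioned medium. These scaled to 312, 339, 306 and 313 CPM in control replicates 1 to 4, and to 339, 343, 337 and 323 CPM in the conditioned replicates. The media overlapped: control replicate 2 was higher than conditioned replicates 1, 3 and 4, and the other control samples were below every conditioned sample. The means were 317 ± 14.9 and 335 ± 8.99 CPM (SD, n = 4 each). This is a log2 fold change of 0.08 (SE 0.03, 95% interval 0.02 to 0.14, adjusted p = 0.0482 by edgeR). That interval spans a rise of 1.18% to 10.3%. The call did not hold in 4 of 9 other analyses, among them DESeq2 (adjusted p = 0.0701) and scaling by total counts only (0.130). It was also lost (edgeR adjusted p of 0.104 to 0.127) without control replicate 1, 3 or 4 or without conditioned replicate 1, 2 or 3. Without control replicate 2 the log2 fold change was 0.11 (adjusted p = 0.000873 by edgeR). Replicate spread was widest of the 3 genes in control medium, at 4.71%, against 1.17 to 1.46% from counting.

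Psph (ENSMUSG00000029446; chromosome 5, 129765558 to 129787449, minus strand) encodes the phosphatase that completes serine. Its raw counts were 1470, 1917, 1287 and 1505 in control and 2101, 1648, 1939 and 1707 in conditioned medium. The normalised values were 87.1, 88.4, 83.3 and 84.9 CPM in control and 107, 98.7, 104 and 99.6 CPM in conditioned medium. Every conditioned sample was above every control sample. The means were 85.9 ± 2.26 and 102 ± 3.86 CPM (SD, n = 4 each). This is a log2 fold change of 0.25 (SE 0.03, 95% interval 0.18 to 0.32, adjusted p = 1.55e-06 by edgeR). Psph had the fewest counts of the 3, and its replicate spread in control medium was 2.63%, against 2.28 to 2.79% from counting alone. In conditioned medium the spread was 3.77%, above the 2.18 to 2.46% from counting.

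**Figure D1:**
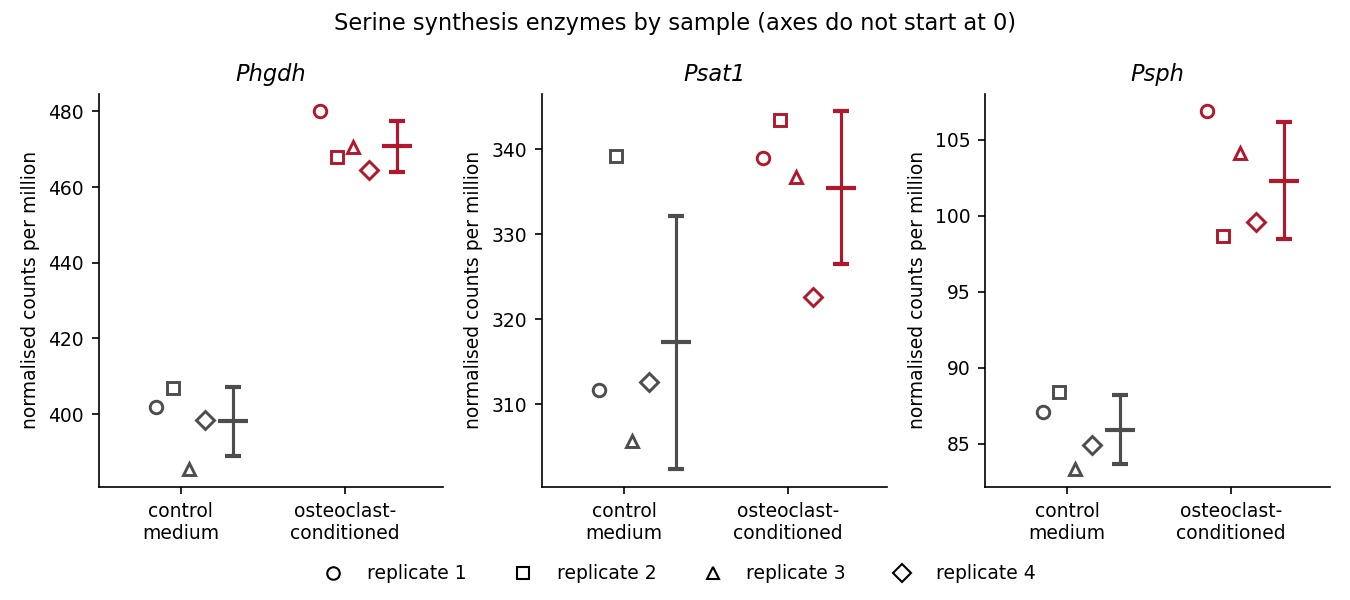
Normalised CPM of Phgdh, Psat1 and Psph (vertical axes, which do not start at 0) in each sample of the 2 media; markers give the replicate number, and bars to the right of the points give the mean ± SD of 4 samples. Phgdh and Psph separate by medium, while the Psat1 value of control replicate 2, at 339 CPM, lies among the conditioned samples.

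Because the enzymes act in series, their unequal changes were tested within samples. The ratio of raw counts of 2 genes in a library does not depend on how libraries are scaled. The log2 ratio of Psat1 to Phgdh was -0.37, -0.26, -0.33 and -0.35 in control replicates 1 to 4 and -0.50, -0.45, -0.48 and -0.53 in the conditioned replicates, with no overlap. Its mean fell by 0.16, a change of -10.5% in the linear ratio (exact permutation over samples, two-sided, p = 0.0286, adjusted p = 0.0429 over the 3 pairs). The log2 ratio of Psph to Psat1 was -1.84, -1.94, -1.88 and -1.88 in control and -1.67, -1.80, -1.69 and -1.70 in conditioned medium. It was 0.17 higher in conditioned medium, or 12.5% on the linear scale, again with no overlap (exact permutation p = 0.0286, adjusted p = 0.0429). An exact p of 0.0286 is the smallest that 4 against 4 samples allow. Leaving out any 1 control sample gave an adjusted exact p of 0.0857 for both ratios, although the media still did not overlap; leaving out a conditioned sample kept 0.0429.

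Psph and Phgdh, the last and the first step, were not found to differ in their change. Their log2 ratio was -2.21 ± 0.01 in control and -2.20 ± 0.04 in conditioned medium (SD, n = 4 each). The difference of 0.009 lay within the SD of either medium (exact permutation over samples, two-sided, p = 0.657 before and after adjustment). It changed sign, to -0.003, without conditioned replicate 1. The control values lay between -2.23 and -2.20 and the conditioned values between -2.25 and -2.17, so the conditioned samples spread wider on both sides.

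**Figure D2:**
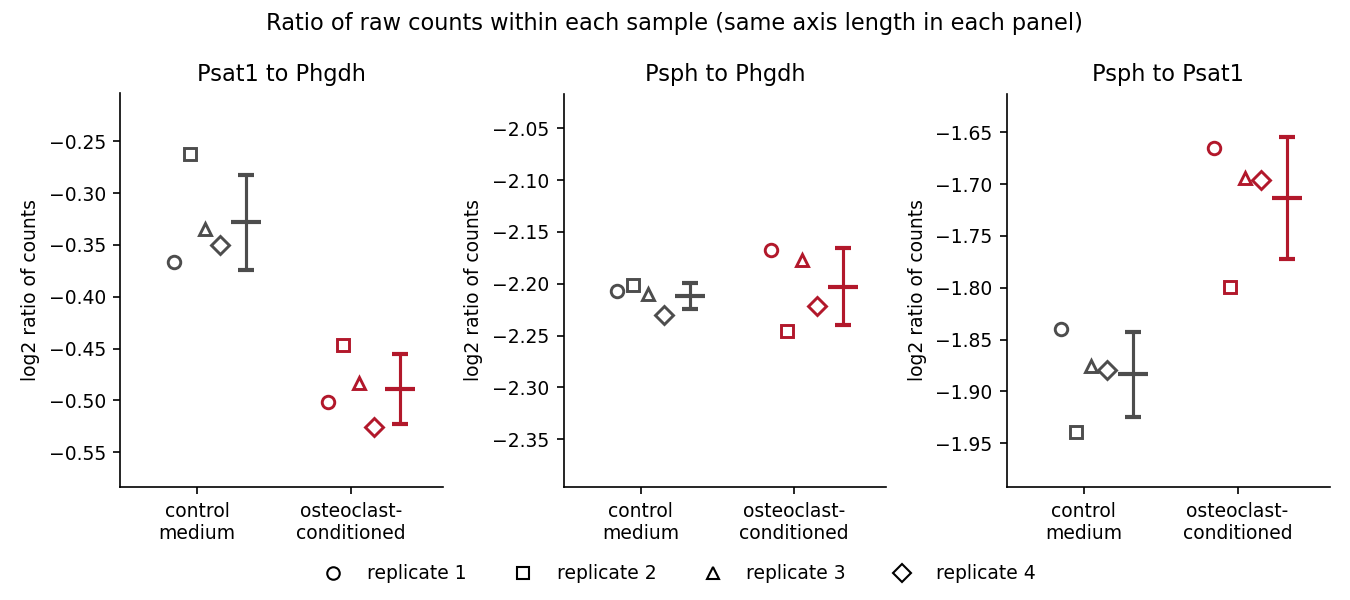
Log2 ratio of raw counts of each pair of enzymes (vertical axes, all of the same length) in each sample; markers give the replicate number, and bars give the mean ± SD of 4 samples. Both ratios with Psat1 separate by medium, by -0.16 and 0.17 on the log2 scale, and the Psph to Phgdh ratio differs by 0.009.

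Levels were set beside each other per kilobase of annotated exon (2.486 for Phgdh, 4.254 for Psat1 and 4.329 for Psph). Phgdh was highest in all 8 samples, then Psat1, then Psph, with no overlap between genes. In control medium the levels were 160 ± 3.68, 74.6 ± 3.51 and 19.9 ± 0.522 CPM per kilobase, and in conditioned medium 189 ± 2.68, 78.9 ± 2.11 and 23.6 ± 0.891 (SD, n = 4 each). Psat1 thus stood at 46.6% ± 1.5 of the Phgdh level in control and 41.6% ± 0.969 in conditioned medium, and Psph at 12.4% ± 0.106 and 12.5% ± 0.320. By counts without length, Phgdh ranked 372, Psat1 582 and Psph 2717 among the 10729 tested genes. Percentages of this kind depend on which transcripts are used: with the longest transcript of each gene, Psat1 stood at 57.6% and Psph at 14.2% of Phgdh in control medium, in the same order.

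**Figure D3:**
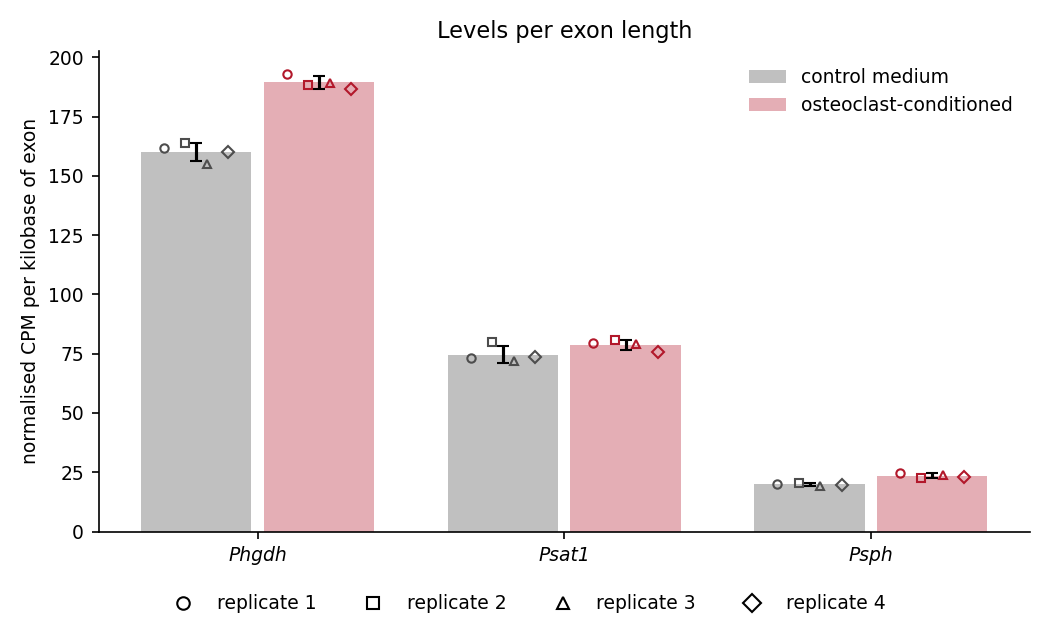
Normalised CPM per kilobase of exon (vertical axis, from 0) for the 3 enzymes in both media; bars are means of 4 samples, error bars the SD, and markers single samples. The order Phgdh, Psat1, Psph is the same in both media, from 160 down to 19.9 in control.

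Genes that share sequence or span with an enzyme limit these counts. An annotated Phgdh transcript matched 21 other annotated genes at 90.4 to 98.7% identity over 118 to 1621 bases, of which 17 are processed pseudogenes (copies of an mRNA inserted elsewhere in the genome). None of the 21 is in the count table. How reads matching several places were counted is not given in the sources used here, so the share of Phgdh reads lost to such copies, or gained from them, is not known. Psat1 matched 1 processed pseudogene, at 90.7% identity over 1059 bases, which is not in the table either. Psph shares 452 exon bases, or 10.4% of its exon length, with Cct6a on the opposite strand. Cct6a, a subunit of the cytosolic chaperonin, went from 728 ± 23.8 to 709 ± 23.4 CPM (log2 fold change -0.04, adjusted p = 0.311 by edgeR). Whether reads were counted by strand is not given in the sources used here, and without strand the reads of the shared bases cannot be told apart.

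The regions around the starts of the 3 genes are shown because the first and last enzymes rose by about the same factor and the middle one by less. Each window runs from 250 bases before to 50 after a RefSeq transcription start (GRCm38.p6), 5′ to 3′ on the gene's minus strand, with CCAAT boxes on either strand in capitals (ATTGG is the box on the opposite strand). They lie at chr3:98339920-98340219, chr19:15925010-15925309 and chr5:129787204-129787503.
Phgdh: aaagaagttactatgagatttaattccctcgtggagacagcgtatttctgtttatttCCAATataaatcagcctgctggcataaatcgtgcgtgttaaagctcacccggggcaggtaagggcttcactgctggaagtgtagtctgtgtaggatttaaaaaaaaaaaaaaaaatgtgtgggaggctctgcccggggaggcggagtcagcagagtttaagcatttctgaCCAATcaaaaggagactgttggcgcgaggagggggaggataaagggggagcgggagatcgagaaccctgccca
Psat1: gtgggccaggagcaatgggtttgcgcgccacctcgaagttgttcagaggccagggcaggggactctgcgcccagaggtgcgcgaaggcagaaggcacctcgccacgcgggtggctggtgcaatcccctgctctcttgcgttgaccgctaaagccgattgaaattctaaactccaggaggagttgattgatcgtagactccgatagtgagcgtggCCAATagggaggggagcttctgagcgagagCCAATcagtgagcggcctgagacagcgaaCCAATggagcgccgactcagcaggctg
Psph: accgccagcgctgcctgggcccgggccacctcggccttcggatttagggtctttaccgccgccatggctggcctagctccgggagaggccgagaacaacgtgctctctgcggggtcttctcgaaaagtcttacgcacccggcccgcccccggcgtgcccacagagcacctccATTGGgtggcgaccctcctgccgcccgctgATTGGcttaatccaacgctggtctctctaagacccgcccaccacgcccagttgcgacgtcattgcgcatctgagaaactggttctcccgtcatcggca
The CCAAT box, the letters bound by the factor NF-Y, occurs 2 times in the Phgdh window, 3 times in that of Psat1 and 2 times in that of Psph. Of all 32851 RefSeq windows of this length, 37.4% hold at least 1 box, 11.7% at least 2 and 3.37% at least 3. The last Phgdh box starts 23 bases before the transcription start, and the Psph boxes start 78 and 48 bases before it. GC boxes (GGGCGG) occur 3 times in the Psph window and not in the other windows shown, against 35.7% of all windows. The letters TGATGNAA, the core of the C/EBP-ATF response element through which ATF4 is known to act, are in none of these windows and in 3.97% of all. The E-box CACGTG (7.15% of all windows) and the full cAMP response element TGACGTCA (1.79%) are also in none, while its core TGACGT (7.51%) occurs 1 time, in the Psph window, just after the start. The antioxidant response element core TGACNNNGC (12.4%) occurs 1 time in each of the Phgdh and Psph windows and overlaps that core in Psph. All motifs were searched on both strands, and they were chosen after the sequences had been read. A second RefSeq start of Psat1, with a window at chr19:15924573-15924872, holds 2 GC boxes and no CCAAT box. GC content was 47.7% in the Phgdh window, 60.3% in that of Psat1 and 65.0% in that of Psph, against a median of 52.7%. A match is a description of letters and not of binding.

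Genes supplying or using the route were examined in 7 lists with 73 genes, of which 62 were tested. In all, 18 were called higher and 15 lower, 53.2% of those tested against 30.5% of all tested genes (15.7% higher and 14.8% lower), and the median log2 fold change was -0.0056, against -0.0087 over all tested genes. Directions differed by list. With scaling by total counts only, 16 were called higher and 17 lower.

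The steps around 3-phosphoglycerate, from which Phgdh draws, mostly fell while Phgdh rose. Of 10 tested genes, 6 were called lower and 1 higher, with a median log2 fold change of -0.20. Over all tested genes, 14.8% were called lower and 15.7% higher. Pgk1, which makes 3-phosphoglycerate, went from 362 ± 34.6 to 263 ± 11.9 CPM (log2 fold change -0.46, SE 0.07, adjusted p = 0.00229 by edgeR). Pgam1, which takes 3-phosphoglycerate on towards pyruvate, went from 91.2 to 67.8 CPM (-0.43, SE 0.04, adjusted p = 3.02e-10 by edgeR). Eno1, the enolase after it, fell by 0.24 on the log2 scale (SE 0.03, adjusted p = 3.06e-06 by edgeR). The control samples of these genes lay above all conditioned samples, but the share of all tested genes separating in this direction was not counted. Tpi1, the triosephosphate isomerase upstream, fell most, by 0.63 (SE 0.04, adjusted p = 4.71e-08 by edgeR). The exception was Pgam2, the muscle form of phosphoglycerate mutase, at 5.36 CPM in control and 6.84 in conditioned medium (log2 fold change 0.35, SE 0.10, adjusted p = 0.00746 by edgeR).

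The enzymes that turn serine into glycine moved in opposite directions. Shmt2, the mitochondrial serine hydroxymethyltransferase, rose from 965 to 1155 CPM, a log2 fold change of 0.26 (SE 0.02, adjusted p = 2.06e-09 by edgeR). Its control samples ran from 945 to 991 CPM and its conditioned samples from 1148 to 1164. Shmt1, the cytosolic form, fell by 0.16 on the log2 scale (SE 0.03, adjusted p = 5.83e-05 by edgeR), from 174 to 178 CPM in control down to 154 to 161 in conditioned medium. Gldc, the decarboxylase of the glycine cleavage system, rose from 386 to 493 CPM (0.35, SE 0.03, adjusted p = 1.29e-08 by edgeR). Over the list of 6 genes, all tested, 3 were called higher and 2 lower, against 15.7% and 14.8% of all tested genes. The median log2 fold change of the list was -0.01. Amt, the aminomethyltransferase of the same cleavage system, had 5 to 21 counts per sample and was not called. Of the other genes of that system, Gcsh was called lower (log2 fold change -0.11, adjusted p = 0.0271 by edgeR). Dld was called higher (0.10, adjusted p = 0.0225 by edgeR).

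Of 7 tested serine and glycine transporters, 4 were called higher and 0 lower by edgeR, against 15.7% and 14.8% of all tested genes. Their median log2 fold change was 0.26, and DESeq2 and limma-voom also called 4 and 0. At an unadjusted p under 0.05, 0 were lower by any of these tools, but 1 was lower with scaling by total counts only and 1 without control replicate 4. Slc6a9, a glycine transporter, rose from 18.8 to 37.6 CPM, a log2 fold change of 1.00 (SE 0.06, adjusted p = 2.05e-14 by edgeR). Of its exon bases, 27.8% are shared with B4galt2 or Ccdc24, and how many of its reads come from the shared bases is not known. Slc1a4, which carries serine and other small neutral amino acids, rose from 65.4 to 100.5 CPM (0.62, SE 0.04, adjusted p = 7.20e-14 by edgeR). Slc1a5, known chiefly as a glutamine transporter, had a log2 fold change of 0.03 (SE 0.04, adjusted p = 0.512 by edgeR), with overlapping samples. The 3 transporters not tested, Slc38a4, Slc38a5 and Slc7a10, had 0 counts in all samples, which allows up to 3 counts, or 0.139 to 0.195 CPM, in each.

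Of 10 tested genes that use serine, 2 were called higher, 1 lower and 7 neither, with a median log2 fold change of 0.01. The share called, 30.0%, is near the 30.5% of all tested genes. Sars, the synthetase that charges serine onto its tRNA, rose from 236 to 303 CPM (0.36, SE 0.03, adjusted p = 6.02e-12 by edgeR). Serinc5, a membrane protein named for serine incorporation, fell by 0.10 (SE 0.03, adjusted p = 0.0185 by edgeR); its samples overlapped between media, and its call was lost without control replicate 2 (adjusted p = 0.0543) or without conditioned replicate 1, 2 or 3 (0.0588 to 0.0625). Cbs, which joins serine to homocysteine, had 1 to 6 counts per sample and was not tested, so a difference in it was not detectable at this depth.

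On the side of the co-substrates of Psat1, glutamate and 2-oxoglutarate, 1 of 13 tested genes was called higher and 5 lower. Over all tested genes, 15.7% were called higher and 14.8% lower. The median log2 fold change of these 13 was -0.07. Gpt2, the mitochondrial alanine aminotransferase, rose from 71.7 to 125 CPM, a log2 fold change of 0.81 (SE 0.04, adjusted p = 2.02e-16 by edgeR). Idh1, the cytosolic isocitrate dehydrogenase that makes 2-oxoglutarate, fell most, by 0.35 (SE 0.06, adjusted p = 3.41e-05 by edgeR). Glud1, glutamate dehydrogenase, had a log2 fold change of -0.02 (SE 0.03, adjusted p = 0.630 by edgeR). None of the 4 genes that make or handle pyridoxal phosphate, the cofactor of Psat1, was called by edgeR's test at an adjusted p under 0.05, with log2 fold changes from -0.27 to -0.04, all negative. At an unadjusted p under 0.05, 2 of the 4 were lower by edgeR, 2 by limma-voom and 1 by DESeq2. Neither limma-voom nor DESeq2 called any after adjustment. Such p-values were common: Psat1, at an unadjusted p of 0.0145 by edgeR, ranked 3229 of the 10729 tested genes. With scaling by total counts only or by the upper quartile, 1 of the 4 was called lower. The same number was called lower without control replicate 2 or without conditioned replicate 2. Pdxp, at -0.27, shares 45.1% of its exon bases with Gm49510.

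Of 12 tested transcription factors and chromatin enzymes described for these genes, 7 were called higher and 1 lower, with a median of 0.17. Over all tested genes, 15.7% were called higher and 14.8% lower. Atf4 rose from 370 to 432 CPM, a log2 fold change of 0.23 (SE 0.03, adjusted p = 3.04e-07 by edgeR), with control samples from 354 to 391 CPM and conditioned samples from 422 to 439. The enzymes had 0.24 (Phgdh), 0.08 (Psat1) and 0.25 (Psph), and a link between Atf4 and these changes was not tested. Cebpb, which pairs with ATF4 on DNA, had the largest log2 fold change, 2.46 (SE 0.30, adjusted p = 1.89e-07 by edgeR), at only 5 to 43 counts per sample, and shares 20.7% of its exon bases with Tmem189. Myc, a known activator of metabolic genes, fell by 0.11 (SE 0.03, adjusted p = 0.00996 by edgeR), and its samples overlapped between media. The Myc call was lost without control replicate 1 or 4 or conditioned replicate 2 or 3, at adjusted p of 0.0501 to 0.0600.

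**Figure D4:**
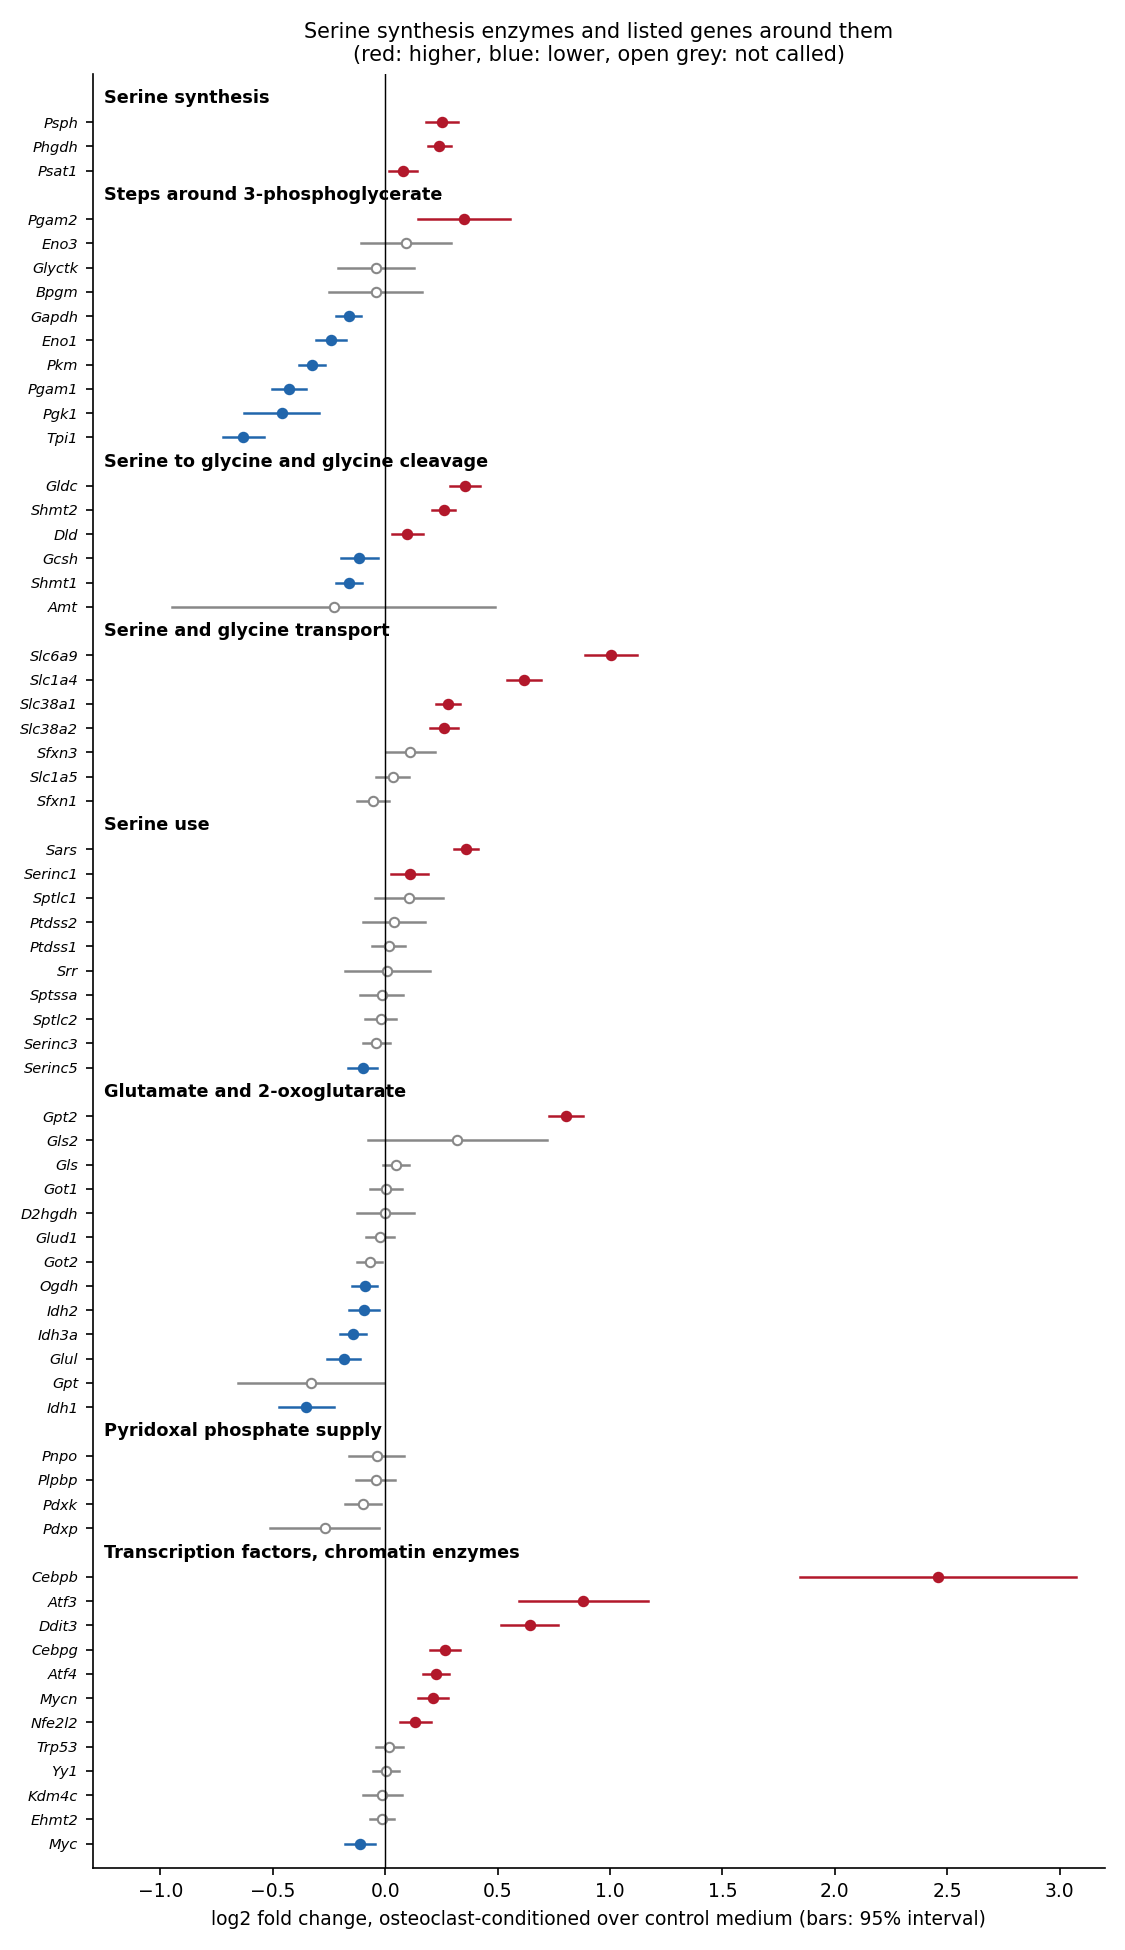
Log2 fold change, osteoclast-conditioned over control medium (horizontal axis), of the 3 enzymes and the 62 tested genes of the 7 lists, with 95% intervals from edgeR; filled red points were called higher, filled blue points lower, and open grey points were not called. Phgdh sits at 0.24, Psat1 at 0.08, Psph at 0.25, Shmt2 at 0.26 and Atf4 at 0.23. Most steps around 3-phosphoglycerate lie below 0.

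For each enzyme the genes with the most similar pattern were sought among 9031 other tested genes whose mean was 5 CPM or more. Likeness was the root mean square difference in log2 CPM over the 8 samples after each gene's mean was removed; it is a description, since all genes share the libraries. Nearest to Phgdh were B4galt1 (a galactosyltransferase, difference 0.015), Xpot (the tRNA exporter, 0.015) and Psap (the precursor of lysosomal saposins, 0.018). Nearest to Psph were Vgll4 (0.023), B4galt1 (0.024) and Phgdh itself (0.024), so that the first enzyme of the route was 3rd among 9031 genes in likeness to the last. In the other direction Psph was 14th for Phgdh. Psat1 ranked 1340 for Phgdh and 1366 for Psph, and from Psat1 Phgdh ranked 3807 and Psph 4466 of 9031. Nearest to Psat1 were Gdi2 (a regulator of Rab proteins, 0.007, with 11.2% of its exon bases shared with Fam208b), Rpl6 (a ribosomal protein, 0.013) and Pum2 (an RNA-binding repressor, 0.015). These genes, like Psat1, had a control replicate 2 that lay with the conditioned samples.

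**Figure D5:**
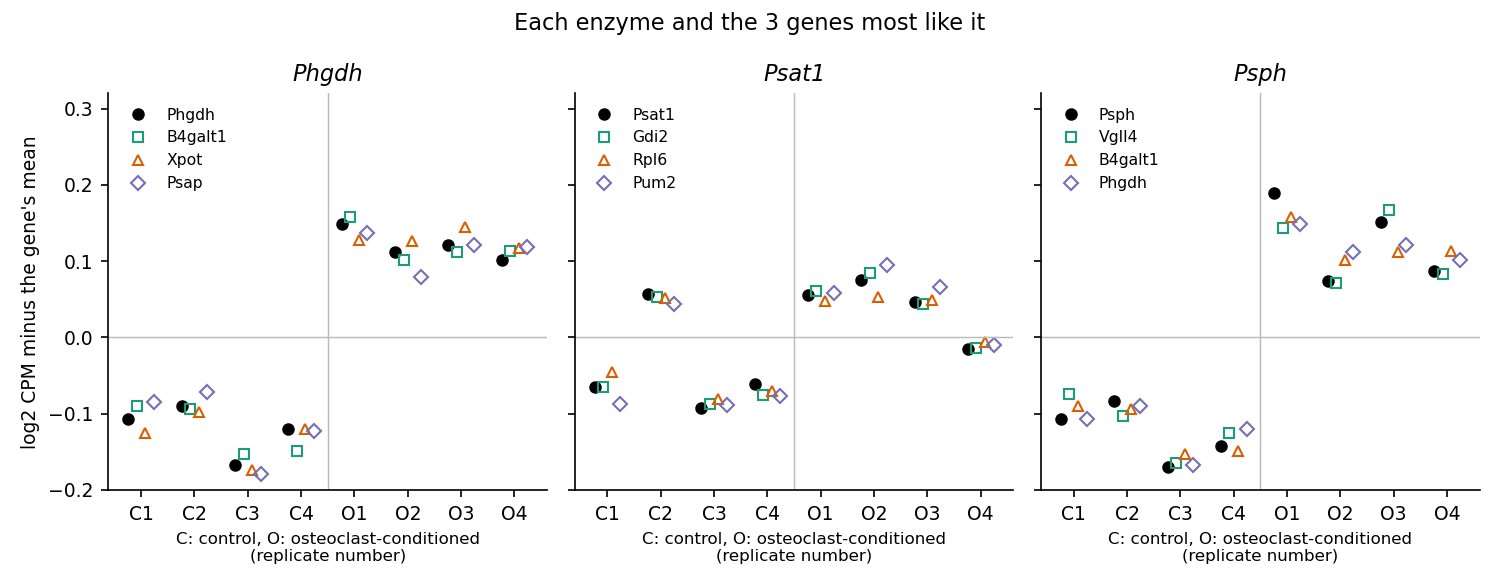
Log2 CPM minus the gene's mean over 8 samples (vertical axis) for each enzyme (filled) and the 3 genes most like it (open), in control (C) and osteoclast-conditioned (O) replicates 1 to 4. The Phgdh and Psph panels split by medium, and in the Psat1 panel control replicate 2 lies above 0 for all 4 genes.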

How the data were processed

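RNA of 8 PER-M60 cultures was sequenced after column extraction (RNeasy Plus Mini) and SureSelect HS2 library preparation, per the labels' protocols. The authors deposited 1 table of raw counts, whole numbers without normalization, with Ensembl gene IDs. STAR 2.7.5a, featureCounts 2.0.1 and the mm10 build are listed in the submitters' processing notes; annotation, strand, multimapping and barcode handling are not given in the sources used here. All 8 columns were matched to samples by their header number, and 0 were left out.

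Of 21859 IDs, 21817 matched GENCODE M21 (GRCm38), which gave symbols, positions and exon lengths. Genes passing filterByExpr (10729) were scaled by TMM and tested with edgeR 4.0.16 (robust glmQLFit, glmQLFTest; R 4.3.3), Benjamini-Hochberg over all tested genes, threshold 0.05. Standard errors are the absolute log2 fold change over the square root of F. Ratios of raw counts were tested by two-sided exact permutation over samples. Copies were sought with blastn 2.17.0 (at least 90% identity over 100 bases). On simulated counts with 50 genes changed 1.1-fold and 50 changed 1.2-fold, beside others changed 1.5-fold and 2-fold, in a run of 10670 genes, 32% and 72% were called, and 7.55% of all calls were false. The members, lists and tests were chosen with earlier results of these data known. Genes named by rule are the members, the 3 most like each, 11 genes fixed by name, and in each list the called extremes. These are the called gene with the largest rise and the one with the largest fall. Amt, Gcsh, Dld, Pdxp and the 3 transporters at 0 counts were named after their values were seen. Of 2 IDs with the symbol Ddit3, the longer was used. Alternatives were other scalings, filters, DESeq2 1.42.0, limma-voom (limma 3.58.1), no robust estimation, the replicate block, other lengths, and leaving out each sample. Running them for each listed gene named by rule was chosen after seeing the data. One of the cell type markers is not reported here.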

Additional observations from a re-analysis of the deposited data

Results flagged for a closer look

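Groups of 4 samples were examined in each medium, 64 in all. They were of the 3 enzymes, their 3 ratios, the tested listed genes named by rule and the genes most like each enzyme. In 5 groups a sample's gap to the nearest other, divided by the range of the 4, was above Dixon's 95% critical value for 4 samples. Chance gives about 3.2 in 64. None of the 5 was one of the enzymes or their ratios. In osteoclast-conditioned replicate 4, Slc6a9 was highest at 39.5 CPM against 36.7 to 37.1 in the other conditioned samples (ratio 0.836), Serinc5 highest at 110 against 105 to 106 (0.869), and Rpl6 lowest at 1900 against 1976 to 1984 (0.909). In control replicate 2, Gdi2 was highest at 1170 CPM against 1059 to 1076 (0.844) and Pum2 highest at 528 against 482 to 486 (0.920). Gdi2, Rpl6 and Pum2 were chosen for their likeness to Psat1, which was itself highest among control samples in replicate 2 and lowest among conditioned samples in replicate 4.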

How the results depend on the processing

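Phgdh and Psph were called higher under all 9 other settings and in all 8 fits that left out 1 sample, with log2 fold changes of 0.22 to 0.25 and 0.23 to 0.27. Psat1 was positive throughout but lost its call under total counts only (0.058), upper quartile scaling (0.070), DESeq2 (0.080) and no robust estimation (0.079), and its leave-one-out values ran from 0.064 to 0.114. Replicate numbers are shared by both media. Deviations of same-numbered samples correlated at -0.051 to 0.143, with a mean of 0.037 against -0.013 for samples of other numbers. Of 8 samples, 3 were nearest to their own number. With so few samples this cannot decide whether same-numbered samples were paired, and the main fit treated them as unpaired. With the replicate block Phgdh, Psat1 and Psph had 0.24, 0.08 and 0.25, all called, and 3446 genes were called in all. The exact sign-flip test of same-numbered differences gave -0.16 for Psat1 to Phgdh and 0.17 for Psph to Psat1 with an adjusted p of 0.188 each, where 4 pairs allow no call. Leaving out 1 sample, the 3 ratios ran from -0.175 to -0.139 (Psat1 to Phgdh), from 0.151 to 0.199 (Psph to Psat1) and from -0.0027 to 0.0235 (Psph to Phgdh, negative without osteoclast-conditioned replicate 1). As a percentage of Phgdh in control medium, Psat1 was 57.6 with the longest transcript and 79.7 with no length, and Psph 14.2 and 21.6. Leaving out 1 sample, Slc1a5 ran from -0.0041 to 0.0634 and Glud1 from -0.0450 to 0.0015, changing sign without control replicate 2, and neither was called. The count of listed genes called stayed between 28 and 35. Over all genes 2672 were called by DESeq2 and 3273 by edgeR. Psph had the fewest counts of the enzymes, and depth limits its precision most.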
